A study of Mus musculus with 146 samples.

Results

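The replication-dependent histone genes of the mouse are the genes whose symbols begin with Hist1, Hist2, Hist3 or Hist4 and continue with h1, h2a, h2b, h3 or h4. They were chosen by symbol alone, without names that end in -ps, and 68 of the 52605 gene symbols in the deposited tables matched. The rule itself uses no measured value. By name, 55 of the 68 members lie in the Hist1 cluster, 10 in Hist2, 2 in Hist3 and 1 in Hist4. They comprise 6 genes for the linker histone H1, 19 for H2A, 18 for H2B, 12 for H3 and 13 for H4. One member, Hist1h2aj, is annotated as a pseudogene in GENCODE M21.

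Single cells picked as germ cells came from ovaries of newborn C57/BL6J mice (age label D0.5, 0.5 days), and 146 Smart-seq2 libraries were sequenced, each deposited as 1 cell. Ovaries of littermates were pooled, cells were picked by mouth pipette, and cDNA that contained Foxl2 by PCR was discarded before sequencing. The labels name no treatment, animal or plate, all cells share 1 group, and the cells are therefore 1 sample with no test across cells. 1 library with Ddx4, the germ cell RNA helicase, at 0 TPM was left out. It had 0.880 TPM of summed germ cell markers, against a lowest value of 779.5 and a median of 5290 in the others, so it went against that choice of cells. The cells kept had Ddx4 between 7.49 and 542 TPM. TPM (transcripts per 1000000 transcripts) is a level per transcript length, so members can be compared with each other on it.

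Histone H2A, H2B, H3 and H4 form the core of the nucleosome, and H1 binds the DNA between nucleosomes. The clustered genes for these proteins are known for their use in S phase, when new DNA must be packed, and germ cells of a newborn ovary have already entered meiosis and no longer replicate their DNA. The mRNA of most clustered histone genes is known to end in a short stem-loop in place of a poly(A) tail, and the protein SLBP binds that stem-loop. Smart-seq2 primes cDNA on poly(A) tails, which is not meant to capture RNA that ends in the stem-loop. Whether the members' reads came from polyadenylated RNA was not measured.

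The stem-loop was searched for in the annotated transcripts of the members and was found in 45 of 68. It is shown because its place in a transcript bears on what poly(A) priming can capture. In the sequences below, read from GENCODE M21 transcripts, capitals mark the paired stem and lower case marks the loop. The first form was found in 25 members, of types H1, H2A, H2B and H3, the second in 7 members, all H4, the third in 6 members and the fourth in 2 members, both H4.
Hist2h2aa1, Hist1h2ap, Hist1h1c, Hist2h3c1, Hist1h2bh and others: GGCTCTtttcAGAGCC
Hist1h4d, Hist1h4n, Hist4h4 and others: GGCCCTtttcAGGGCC
Hist1h1t, Hist1h3c, Hist1h3e and others: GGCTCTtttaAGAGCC
Hist1h4i and Hist2h4: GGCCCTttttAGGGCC
Another 23 members, among them Hist1h2ba and Hist1h2aa, have no stem-loop in their annotated transcript. In 23 of the 45 members with a stem-loop the annotated transcript runs on for more than 100 bases past it, as it does for 840 bases in Hist1h1c and 2445 bases in Hist4h4.

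Depth and purity were measured before the members were described. Between 4074810 and 26855273 reads per cell lay on genes, with a median of 9498860. Pregranulosa and stroma markers had summed medians of 0.359 and 0.623 TPM and highest cells of 81.6 and 378.9 TPM, and Foxl2 was at or above 0.1 TPM in 5 cells, whereas globin and endothelial markers reached 324516 TPM in 1 cell and passed 10000 TPM in 11. Within 7 pairs of libraries the correlation over genes was 0.984 to 0.993, against at most 0.819 in any other pair, and the labels do not say that any cell was sequenced again. All 14 libraries lay in cluster 2 (defined below) and were kept, and the summed level, the number of members detected, the type sums, the counts past 1.5-fold and the ratios of the members chosen by size were also computed without the second library of each pair. Members were shared more often within these pairs than between other cells, with 54.5% to 88.2% of the members detected in either library found in both, against a median of 24.2% and a highest value of 70% elsewhere. Of 57 cases in which a member reached 5 TPM in 1 library of such a pair, 47 were detected in the other library too.

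The members made up a small share of the TPM of every cell. Their summed TPM was 12.4 in the lowest cell, 278 at the median and 1039 in the highest. At the median this is 0.0278% of all TPM, spike-in RNA included. Since RNA that ends in the stem-loop is not meant to be captured, this is no measure of all RNA of the members. By comparison, 14 histone genes outside the clusters, such as H3f3a, H3f3b and H2afz, whose mRNA is known to be polyadenylated, had a summed TPM of 452 to 11074 with a median of 3569. The members therefore held 7.20% of the TPM of both groups in the median cell, with a range of 0.645% to 61.3%. The sum of the members had a Spearman correlation across cells of -0.25 with reads per cell and 0.17 with the spike-in share, given as a description of cells of 1 sample.

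A few members carried most of that sum. Hist2h2aa1, Hist1h2ap and Hist1h1c together accounted for 50.02% of the mean summed TPM, and the 12 highest members for 76.4%. At least 0.1 TPM in at least 10 cells was reached by 50 of 68 members (73.5%), against 42.99% of all gene symbols. No member was at 0 in every cell, but 61 had a median of 0 TPM and 28 were detected in under 10% of the cells. The lowest, Hist1h2bl, had 1 read in all cells together. A cell had a median of 14 members with at least 1 read, with a range of 3 to 29, and its leading member alone held a median of 41.6% of its summed TPM. Hist2h2aa1 led in 58 cells, Hist1h2ap in 36 and Hist1h1c in 13.

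**Figure D1:**
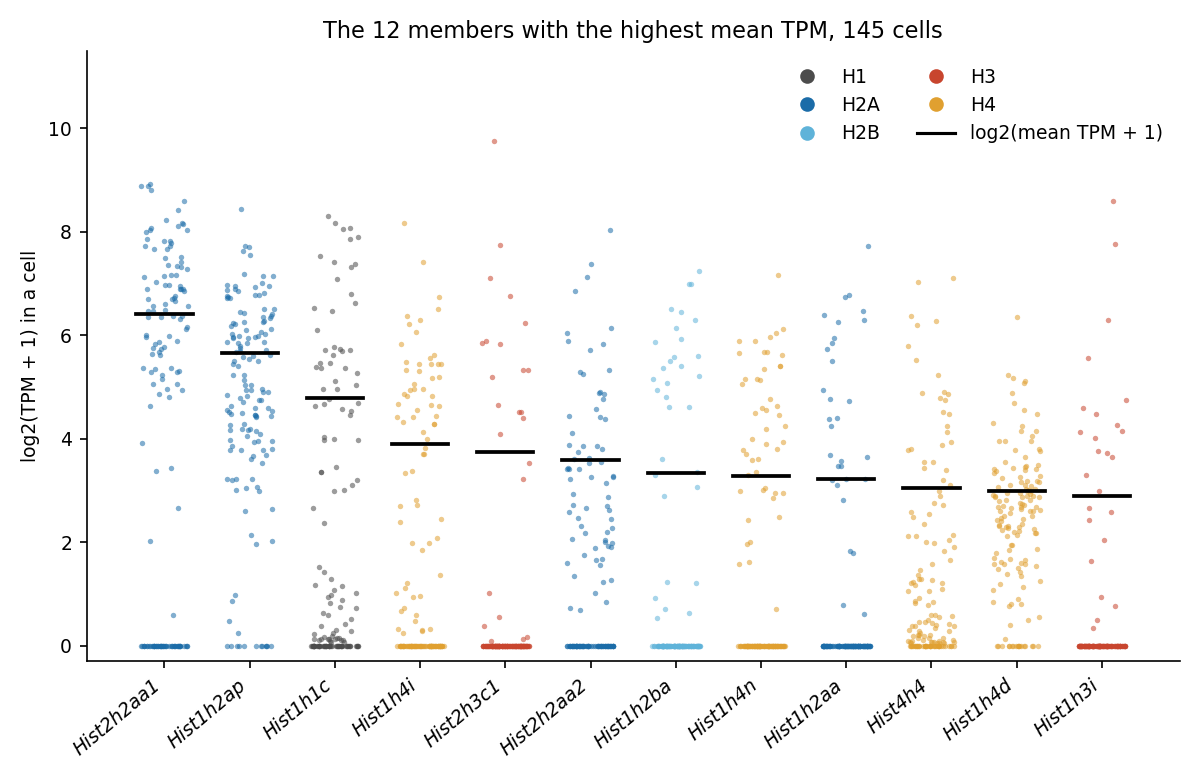
Level of the 12 members with the highest mean TPM, as log2(TPM + 1) on the vertical axis, with 1 point per cell kept, coloured by histone type, and a bar at the log2 of the mean TPM plus 1. Most members have a dense row of cells at 0 and a second group of cells well above it, whereas Hist1h2ap and Hist1h4d reach 0.1 TPM in 91.7% and 87.6% of the cells.

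Detection and mean level did not run together for all members. Hist1h2ap was found in 91.7% of cells (exact 95% interval 85.99 to 95.7%) with a mean of 49.3 TPM, whereas Hist2h2aa1 had the higher mean of 83.99 TPM in 93 cells (64.1%, 55.8 to 71.9%). Hist1h4d was found in 87.6% of cells with a mean of only 6.97 TPM. Hist2h3c1 stood at the other end, with a mean of 12.5 TPM from 22 cells (15.2%, 9.76 to 22.1%). A single cell, number 10, held 47.8% of all Hist2h3c1 signal at 864 TPM, so the mean of this gene describes few cells. All intervals cover counting error only.

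**Figure D2:**
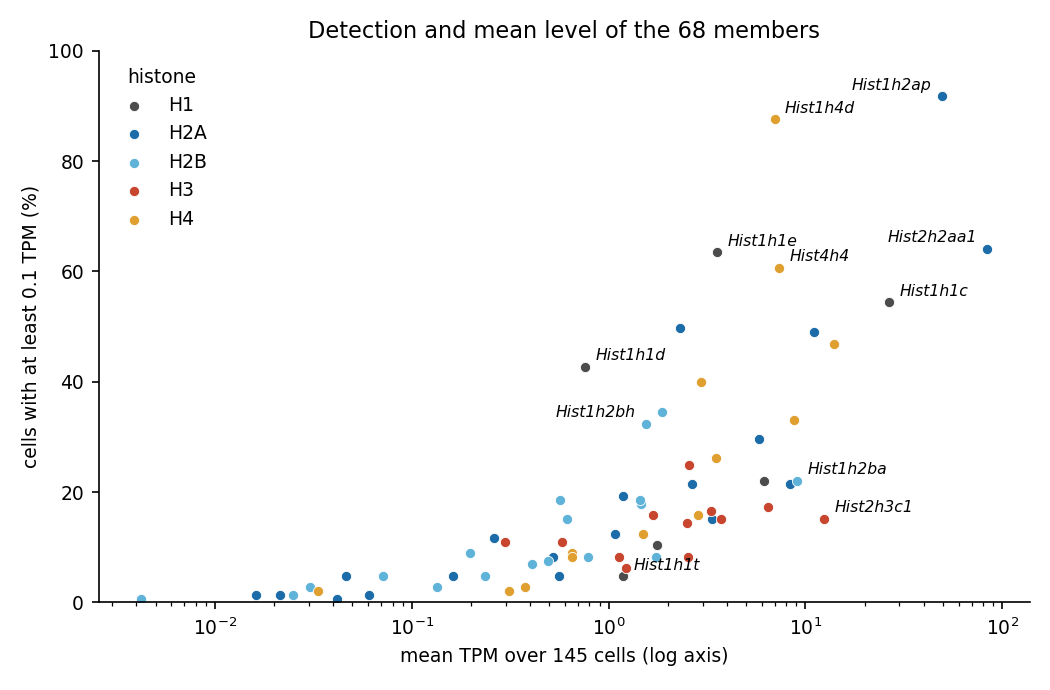
Percentage of the cells with at least 0.1 TPM against the mean TPM of each of the 68 members (log axis), coloured by histone type. Hist1h2ap and Hist1h4d lie highest at 91.7% and 87.6%, and Hist2h3c1 lies low at 15.2% for its mean of 12.5 TPM.

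Many members are near-copies of each other, which limits how far reads can be told apart between them. Only a median of 44.2% of the 31-base words of a member occur in no other gene, and 39 members have under 50% of their own. For the H1 genes the median is 96.2%, and for the H2A genes it is 20.2%. Hist1h2ap shares 93.4% of its words with Hist1h2ao. Hist2h2aa1 and Hist2h2aa2 share nearly everything, with 10.4% and 0% of words of their own, and their lengths in the files (528 and 586 bases) are those GENCODE M21 gives for the other gene of the pair, so which of them a value belongs to is uncertain. Summed over both, Hist2h2aa1 and Hist2h2aa2 averaged 90.5, 115.9 and 38.8 TPM over clusters 1, 2 and 3, which are defined next.

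To see how the members varied with the state of the germ cell, cells were grouped into 3 clusters by 20 feature genes of oocyte development, none of them a member. Clusters were numbered by the first component of those genes, with the meiotic genes Sycp2, Stag3 and Taf7l high at its start, and held 19, 93 and 33 cells. Ratios below are log2 ratios of mean TPM, later over earlier cluster, after adding 1 TPM to both means, and a ratio counts as past the limit at 1.5-fold (0.58 on the log2 scale). With all cells from 1 sample these are differences between cells of that sample, with no test.

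On the TPM scale the summed level of the members stayed within 1.5-fold between clusters. In cluster 1 the sum was 115.3 TPM in the lowest cell, 304 at the median and 659 in the highest, with a mean of 347. The median was 288 TPM in cluster 2 and 224 in cluster 3, with means of 326 and 286. The clusters overlapped almost fully, and between clusters 1 and 3 the means differed by a log2 ratio of -0.28. This direction turned with the scaling, to 0.48 on the CPM scale (read counts scaled to the same total per cell) and 0.38 per spike-in RNA, both within 1.5-fold. Less the shift that each scaling gave the median of all genes, these are 0.29 and -0.30. That of the second step, from cluster 2 to 3, was -0.19 in TPM and 0.76 when scaled by spike-in RNA, the latter being -0.06 relative to the shift of all genes. The median cell had 14, 12 and 18 members with at least 1 read in clusters 1, 2 and 3, and 10, 9 and 12 after every cell was thinned to 1000000 reads.

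**Figure D3:**
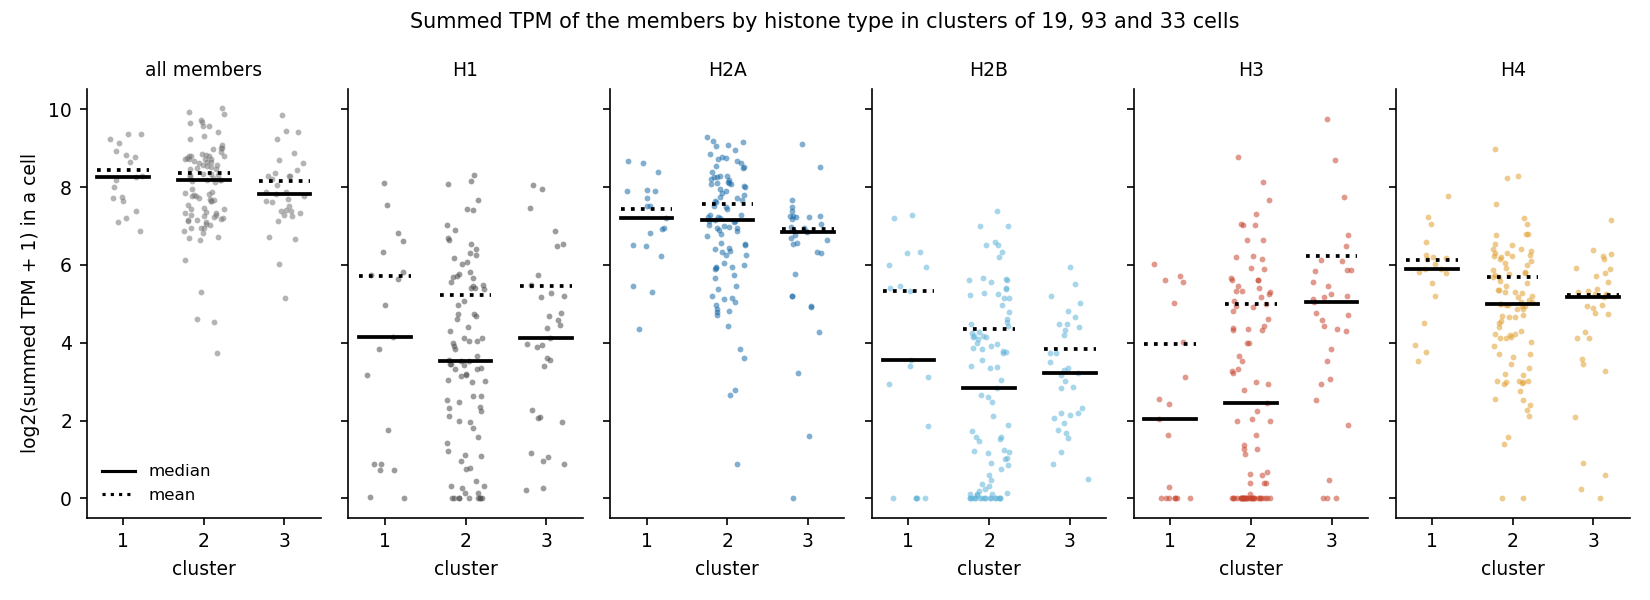
Summed TPM of all members and of each histone type, as log2(summed TPM + 1), in the cells of clusters 1, 2 and 3, with 1 point per cell, a solid bar at the median and a dotted bar at the mean. The totals overlap between clusters, the H3 median is 3.12 TPM in cluster 1 and 32.1 in cluster 3, and H4 lies highest in cluster 1.

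The mix of histone types shifted. H3 genes made up 4.21% of the mean sum in cluster 1, 9.44% in cluster 2 and 25.8% in cluster 3. H2B genes went the other way, with 11.3%, 6.001% and 4.68%, and so did H4 genes, with 19.9%, 15.5% and 12.8%. H2A genes were the largest class throughout, with 49.7%, 57.8% and 41.8%, and H1 genes held 14.9%, 11.3% and 14.9%.

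Single members moved in both directions. In the first step, from cluster 1 to 2, 15 of the 42 members that averaged 1 TPM or more in 1 of the clusters were higher, where 30.3% of all genes were, and 14 were lower, where 26.2% of all genes were. In the second step, from cluster 2 to 3, 13 of 43 members were higher against 21.2% of all genes, and 11 were lower against 33.1%. Over both steps, from cluster 1 to 3, 13 of 40 members were higher against 31.7% of all genes, and 17 were lower against 38.3%. These shares are near the background, so the number of members past 1.5-fold is not itself a result about them. Many means rest on single cells, since 92 of the 158 cluster means of members at 0.1 TPM or more were over 1.5 times the mean without the highest cell. The median log2 ratio of cluster 3 over cluster 1 was -0.04 for the members and -0.17 for all genes. Scaling by spike-in RNA, which raised the median of all genes by 0.68 over both steps and by 0.82 in the second, gave 20 higher and 13 lower of 47 members from cluster 1 to 3, where 47.8% of all genes were higher and 23.9% lower. For the second step it gave 28 higher and 10 lower of 46 members, where 51.5% of all genes were higher and 13.4% lower. For the first step it gave 10 and 19 of 44 members, where 24.9% and 33.4% of all genes were. The CPM scale gave 6 higher and 9 lower of only 25 members in the first step, where 30.5% and 23.9% of all genes were.

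**Figure D4:**
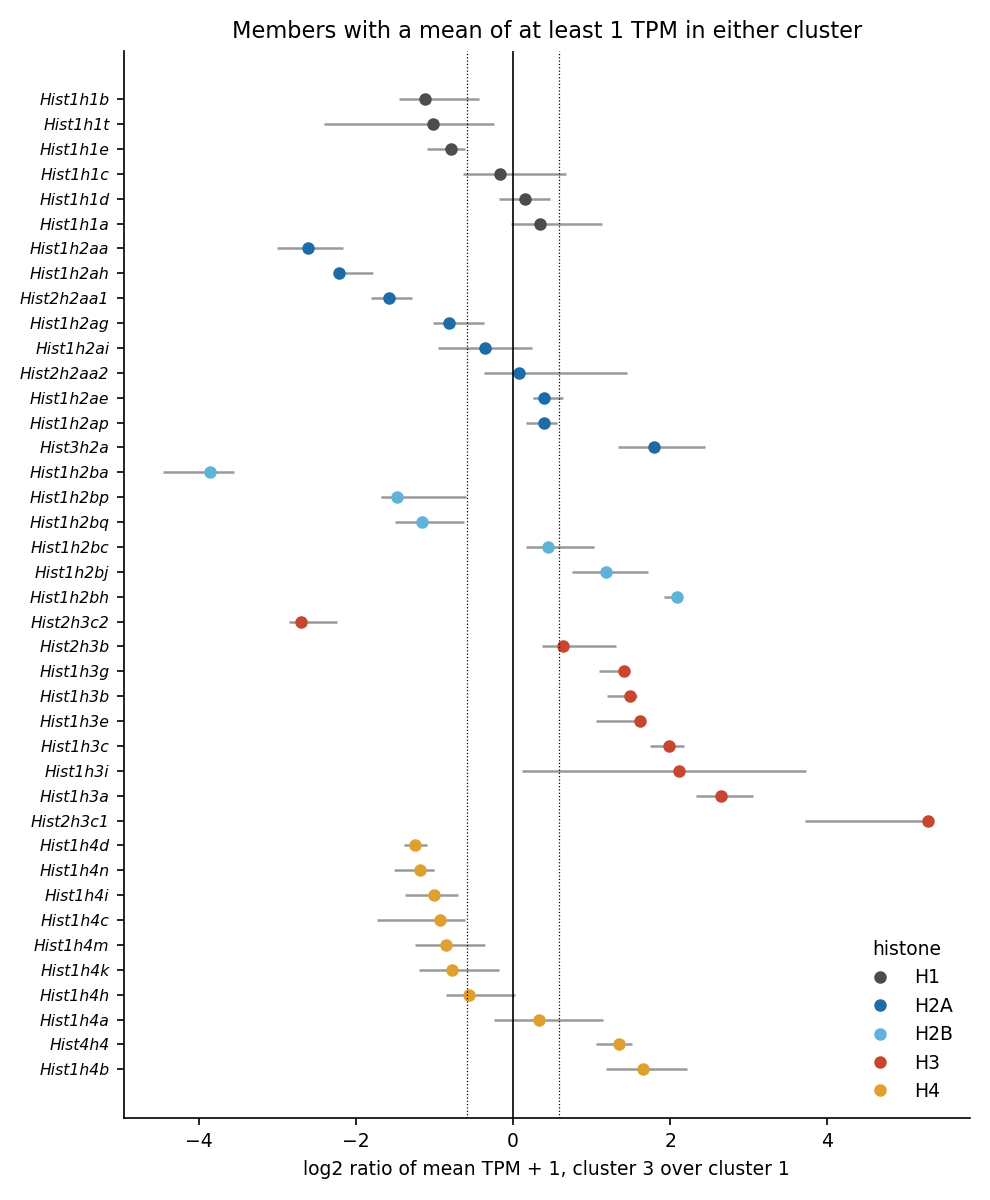
Log2 ratio of mean TPM (plus 1) in cluster 3 over cluster 1 for the 40 members that averaged 1 TPM or more in 1 of these clusters, ordered within histone type. The grey line of each point spans the ratios with each single cell left out in turn, and dotted lines mark 1.5-fold. Hist2h3c1, an H3 gene at 0 in cluster 1 whose ratio therefore depends on the added 1 TPM, lies furthest to the right at 5.28, and Hist1h2ba, an H2B gene, furthest to the left at -3.85.

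The linker histone genes were led by Hist1h1c, whose mRNA is known to be polyadenylated in differentiated cells. Its level was 0 in the lowest cell, 0.196 TPM at the median and 316 in the highest, with a mean of 26.7, and its means in the 3 clusters were 29.4, 26.3 and 26.1 TPM. Without cell 50 the mean of cluster 1 was 16.1 TPM and the log2 ratio of the first step was 0.68 in place of -0.16. Without its highest cell, the mean of cluster 3 was 18.6 TPM. Detection went from 57.9% (33.5 to 79.7%) of cells in cluster 1 to 48.4% (37.9 to 58.99%) and 69.7% (51.3 to 84.4%), with overlapping intervals. Hist1h1e was found in 92 cells with a mean of 3.55 TPM and fell from 4.67 TPM in cluster 1 to 2.27 in cluster 3 (log2 ratio -0.79). Hist1h1t, the linker histone known from spermatocytes, was detected in 7 cells, 2 of them in cluster 1, and its highest cell had 53.4 TPM. Its mean of 4.29 TPM in cluster 1 against 0.401 in cluster 2 (log2 ratio -1.92) rests on those 2 cells, and the mean of cluster 1 was 2.10 TPM without the higher of them. Hist1h1a was found in 3 of 19, 12 of 93 and 17 of 33 cells of clusters 1, 2 and 3, with means of 7.84, 4.42 and 10.2 TPM (log2 ratios -0.71 and 1.04 for the 2 steps). Without its highest cell the mean of cluster 1 was 4.09 TPM and the first ratio was 0.089, within 1.5-fold.

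On the scale of mean TPM plus 1, the largest fall from cluster 1 to 3 among the members that passed the filter was that of Hist1h2ba, which encodes the testis-type histone H2B and is also known from oocytes. In cluster 1 its level was 0 in the lowest cell, 0.454 TPM at the median and 126.8 in the highest, with a mean of 28.5 and detection in 10 of 19 cells (52.6%, 28.9 to 75.6%). In cluster 2 the median was 0, the highest cell had 149.8 TPM, the mean was 8.01, and 18 of 93 cells had the RNA (19.4%, 11.9 to 28.9%). In cluster 3 the highest cell had 23.5 TPM, the mean was 1.04, and 4 of 33 cells had it (12.1%, 3.40 to 28.2%). Without its highest cell that mean was 0.335. Single cells of all 3 clusters overlap at 0. The detection intervals cover counting error among cells of 1 sample, so they are no test of a difference between clusters. The log2 ratio of cluster 3 over cluster 1 was -3.85, and between -4.46 and -3.56 with any 1 cell left out.

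Its neighbour Hist1h2aa, which encodes the testis-type H2A, fell too. The 2 genes lie head to head on chromosome 13, with annotated starts 306 bases apart (mm10, GENCODE M21). Hist1h2aa averaged 17.5, 8.65 and 2.04 TPM in the 3 clusters, and its highest cells had 106.4, 211 and 25.6 TPM (log2 ratio of cluster 3 over cluster 1 -2.61). Without its highest cell the mean of cluster 3 was 1.31 TPM, and the ratio of the first step, -0.94, was -0.50 without 1 cell of cluster 1. It was detected in 9 of 19, 15 of 93 and 7 of 33 cells, so that from cluster 2 to cluster 3 the mean fell (log2 ratio -1.67) while the share of cells was 16.1% and 21.2%. Either gene was found in 14 of 19 cells of cluster 1 (73.7%), 29 of 93 of cluster 2 (31.2%) and 10 of 33 of cluster 3 (30.3%). Both were found together in 10 cells, which is 31.2% of the cells with Hist1h2ba and 32.3% of those with Hist1h2aa. The correlation between the 2 genes across cells was 0.15.

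The promoters of the pair are shown because both genes fell and share the stretch between them. They are RefSeq sequences (GRCm38.p6, 250 bases before to 50 after each start), with capitals for 3 motifs on either strand, the TATA box TATAAA, the CCAAT box and the octamer ATTTGCAT. Hist1h2ba is at chr13:23934107-23934406 on the minus strand and Hist1h2aa at chr13:23934187-23934486 on the plus strand, so most of each is the reverse complement of the other.
Hist1h2ba: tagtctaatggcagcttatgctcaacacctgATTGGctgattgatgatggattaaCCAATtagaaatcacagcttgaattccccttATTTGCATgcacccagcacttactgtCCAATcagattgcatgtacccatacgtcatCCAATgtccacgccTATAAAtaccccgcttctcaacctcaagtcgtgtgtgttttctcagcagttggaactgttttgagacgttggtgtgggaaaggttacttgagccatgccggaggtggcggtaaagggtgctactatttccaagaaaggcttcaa
Hist1h2aa: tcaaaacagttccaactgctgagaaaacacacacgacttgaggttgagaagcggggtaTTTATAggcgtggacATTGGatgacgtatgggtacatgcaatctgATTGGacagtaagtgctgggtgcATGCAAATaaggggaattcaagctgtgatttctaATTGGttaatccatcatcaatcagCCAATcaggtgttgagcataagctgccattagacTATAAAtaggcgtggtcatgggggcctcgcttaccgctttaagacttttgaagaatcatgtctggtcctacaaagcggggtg
RefSeq promoters were matched for 62 members. TATAAA was in 55.6% of the members' 63 promoters and in 13.6% of all 32851 RefSeq promoters, CCAAT in 85.7% and 37.4%, and ATTTGCAT in 22.2% and 1.74%. CCAAT was in every promoter of the H1, H2A, H2B and H3 members and in 3 of 12 of the H4 members, and ATTTGCAT was in 7 of 18 H2A and 7 of 17 H2B promoters and in no other. A match is a description of these letters only.

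Without Hist1h2ba the mean summed level of the H2B genes did not fall. The summed H2B level averaged 39.1, 19.6 and 13.4 TPM over the 3 clusters (log2 ratio of cluster 3 over cluster 1 -1.48), and without Hist1h2ba they were 10.7, 11.6 and 12.4. On the CPM scale the H2B ratio was -0.09. Single H2B members past the filter went both ways from cluster 1 to 3, with 3 lower and 2 higher, where 38.3% and 31.7% of all genes were. Besides Hist1h2ba, Hist1h2bp (-1.48) and Hist1h2bq (-1.16) were lower, and both stayed past 1.5-fold with any 1 cell left out. However, only 49.4% and 1.74% of their 31-base words are their own, so their values depend on how reads were divided. Hist1h2bh, whose annotated transcript of 1679 bases runs 1214 bases past the stem-loop, rose. It was found in 2 of 19 cells of cluster 1 (10.53%, 1.30 to 33.1%), 23 of 93 of cluster 2 (24.7%, 16.4 to 34.8%) and 22 of 33 of cluster 3 (66.7%, 48.2 to 82.04%), and the highest cells had 0.511, 47.7 and 18.6 TPM. Its means were 0.0334, 1.21 and 3.38 TPM, and without cell 24 that of cluster 2 was 0.704. Its correlation with the order of cells on the first component, 0.53, was the highest of all members. Reads per cell had medians of 9615238, 8965502 and 10736139 in the 3 clusters, and their part in this result was not tested. Hist1h2bc and Hist2h2be, 2 H2B genes known for polyadenylated mRNA in differentiated cells, had means of 1.88 and 0.0717 TPM and were found in 50 and 7 cells. The first-step log2 ratio of Hist1h2bc, 0.65, was 0.44 with 1 cell left out.

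**Figure D5:**
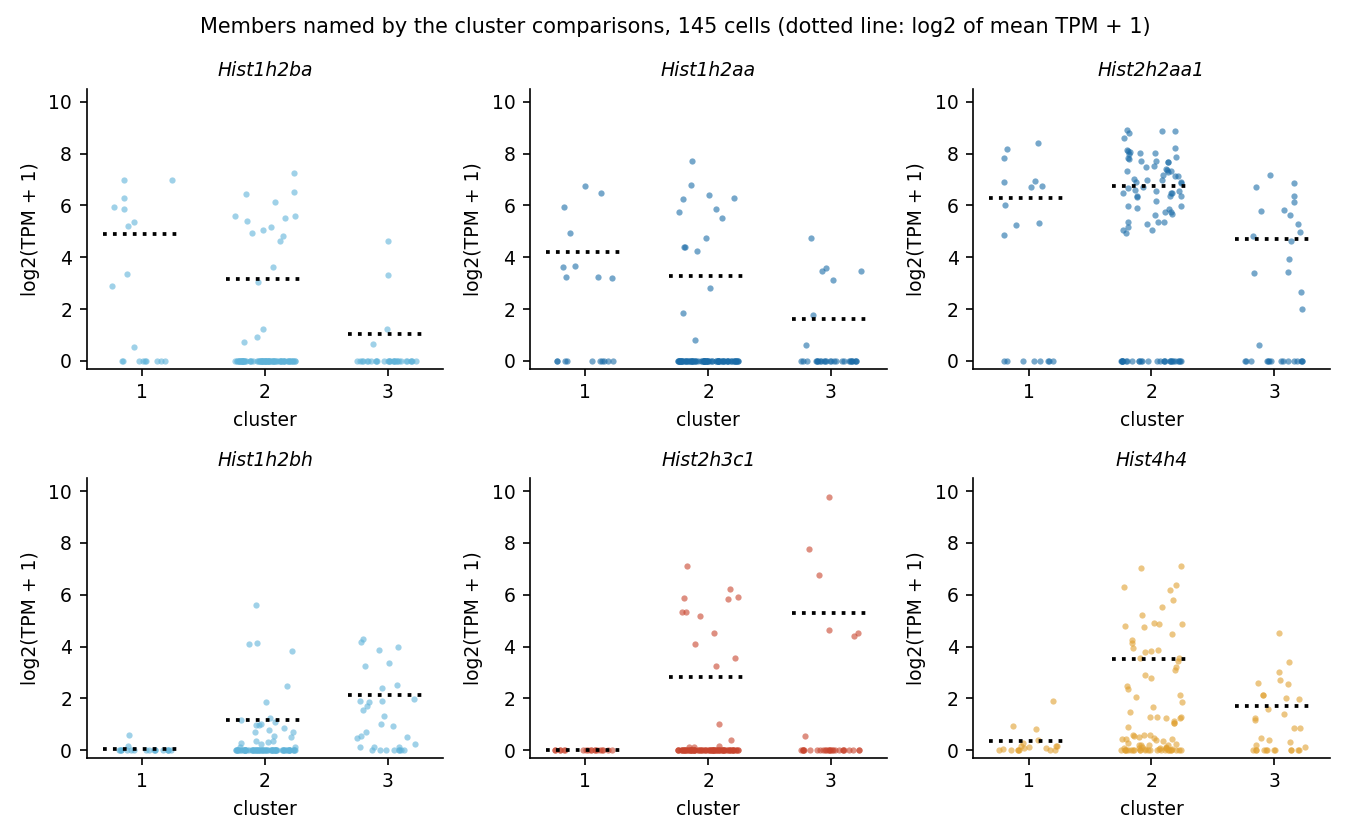
Level of 6 members in single cells of clusters 1, 2 and 3, as log2(TPM + 1), with 1 point per cell and a dotted bar at the log2 of the mean TPM plus 1. Hist1h2ba and Hist1h2aa are lowest in cluster 3 (means of 1.04 and 2.04 TPM), Hist1h2bh is most often detected there (22 of 33 cells), and Hist2h3c1 is at 0 in all cells of cluster 1.

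Among the H2A genes, the leading member Hist2h2aa1 dropped at the last step. In cluster 1 it was at 0 in the lowest cell, 36.5 TPM at the median and 344 in the highest, and in cluster 2 at 0, 78.7 and 484. In cluster 3 the median was 3.06 TPM and the highest cell had 142.7. The means were 77.7, 106.1 and 25.2 TPM, with log2 ratios of 0.45 for the first step and -2.03 for the second. Hist1h2ap moved the other way and within 1.5-fold, with medians of 21.2, 25.9 and 60.8 TPM and means of 46.4, 45.7 and 61.2. Its near-copy Hist1h2ao had means of 0.928, 4.97 and 0.135 TPM, with 162 TPM in a single cell of cluster 2. Without that cell its mean there was 3.26. The log2 ratios of Hist1h2ao were 1.63 and -2.39, or 0.26 and -0.58 with means of log2 values. Summed over Hist1h2ap and Hist1h2ao, the means were 47.3, 50.7 and 61.3 TPM, with log2 ratios of 0.097 and 0.27, both within 1.5-fold. Hist1h2ah was detected in 4, 3 and 0 cells. Its mean in cluster 1, 3.66 TPM, was 62.8-fold above a floor of 3 reads over the 33 cells of cluster 3, and 42.1-fold without its highest cell. The floor is a setting and no bound. Only 7.47% of the 31-base words of Hist1h2ah are its own and 88% are shared with Hist1h2ad, so its values depend on how reads were divided. Hist3h2a rose from 1.79 to 5.58 and 8.69 TPM, and without cell 18 the first of these was 0.783. However, 32.1% of its 31-base words are shared with the overlapping gene Trim17. Summed over all H2A genes, the means were 172.7, 188.4 and 119.7 TPM. The log2 ratio of the second step was -0.65, and it turned to 0.38 per spike-in RNA, which is -0.44 relative to the shift of all genes.

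H3 genes rose as a group. Their sum was 0 in the lowest cell of every cluster, with medians of 3.12, 4.45 and 32.1 TPM and highest cells of 64.004, 436 and 864 TPM. At least 10 TPM of H3 RNA was found in 6 of 19 cells of cluster 1 (31.6%, 12.6 to 56.6%), 40 of 93 of cluster 2 (43.01%, 32.8 to 53.7%) and 25 of 33 of cluster 3 (75.8%, 57.7 to 88.9%). The means were 14.6, 30.8 and 73.9 TPM, with a log2 ratio of cluster 3 over cluster 1 of 2.26, and of at least 1.68 with any 1 cell left out. Without cell 10 the mean of cluster 3 was 49.2 TPM. Without Hist2h3c1 the means were 14.6, 24.8 and 35.9 TPM and the ratio was 1.24, or 0.73 without the highest cell of cluster 3. Without that cell, at 391 TPM, the mean of cluster 3 was 24.8 TPM. The ratio of the second step was then 0.002 in place of 0.52, and it was at most 0.79 with any 1 cell left out. Outside Hist2h3c1 the median was 2.12 TPM in cluster 2 and 20.7 in cluster 3. At least 10 TPM was found in 36 of 93 cells (38.7%) and 21 of 33 cells (63.6%). The ratio of means in the second step therefore rests on 1 cell, while the median and this share do not. Of all 12 H3 members, with no filter on low values, 8 were higher between clusters 1 and 3, where 13.4% of all genes were. Lower were 3 (Hist2h3c2, Hist1h3h and Hist1h3f), where 15.4% were. That background holds all gene symbols, of which only 42.99% were detected in at least 10 cells. Past the filter, 8 H3 members were higher and 1 was lower, where 31.7% and 38.3% of all genes were. Most of those that were higher averaged under 1 TPM in cluster 1. In TPM all other types together went from 333 to 213 (log2 ratio -0.64). On the CPM scale H2A turned to 0.22 and H1, H2B and H4 were at -0.13, -0.09 and -0.45, so that fall is not seen for every type on that scale. Per spike-in RNA H1 and H2A were at 0.76 and 0.34, which is 0.08 and -0.34 relative to the shift of all genes.

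Several H3 genes shared this direction, each in a minority of cells. Hist1h3a was detected in 1 of 19, 11 of 93 and 12 of 33 cells, and its means were 0.324, 2.48 and 7.32 TPM (log2 ratio of cluster 3 over cluster 1 2.65). Hist1h3c was detected in 2, 18 and 16 cells, with means of 0.241, 2.57 and 3.91 TPM (1.98). Hist1h3b was found in 1, 7 and 13 cells. Its mean was highest in cluster 2, at 3.17 TPM, of which 1 cell with 282 TPM held nearly all, and without that cell the mean there was 0.142. The rise of Hist1h3i, from 2.59 and 4.41 to 14.5 TPM, rested on 1 cell at 387 TPM, without which the mean of cluster 3 was 2.88 TPM and the ratio over cluster 2 was -0.48. Its means in clusters 1 and 2 were 0.173 and 2.11 TPM without cells 65 and 41. Hist1h3h, which shares 85.3% of its words with Hist1h3i, went from 0.959 TPM to 3.74 and 0.0128. Without cell 41 at 216 TPM its mean in cluster 2 was 1.43 and the first-step ratio was 0.31 in place of 1.27, and without cell 51 its mean in cluster 1 was 0.173.

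Hist2h3c1 was the H3 gene with the highest mean, and 47.8% of its summed TPM lay in 1 cell. It was at 0 in all 19 cells of cluster 1 (exact interval of the share 0 to 17.6%), detected in 15 of 93 cells of cluster 2 with up to 137.9 TPM, and in 7 of 33 cells of cluster 3 with up to 864 TPM. Its means were 0, 5.98 and 37.96 TPM, and without cell 10 the last was 12.1. Its mean in cluster 3 was 2785-fold above a floor of 3 reads over cluster 1, and 891-fold above it without cell 10. That floor is a setting, so these are no bounds on the difference in RNA. In cluster 3 its highest cells were numbers 10, 12 and 53, at 864, 214 and 107.8 TPM. Their germ cell markers summed to 1843, 1902 and 2874 TPM (cluster median 5073). Mitochondrial reads were 18.9%, 15.9% and 11.6% (median 7.74%), and spike-in reads 0.662%, 0.656% and 1.10% (median 0.252%). Cell 14, the highest in cluster 2, had the lowest germ cell markers of all cells kept (779.5 TPM) and 21.1% mitochondrial reads. The part of these signs in the result was not tested. Hist2h3c2, which shares 64.2% of its words with Hist2h3c1, had the opposite order at 6.90, 4.33 and 0.213 TPM (log2 ratio -2.70), and without its highest cell the last of these was 0.0928. Both genes together averaged 6.90, 10.3 and 38.2 TPM, and 12.4 in cluster 3 without cell 10, where the log2 ratio of cluster 3 over cluster 1 was 0.76 in place of 2.31.

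On the TPM scale H4 genes were highest in cluster 1. Their sum was 10.6 TPM in the lowest cell of cluster 1, 58.9 at the median and 217 in the highest, and the medians of clusters 2 and 3 were 30.9 and 35.1 TPM. The means were 69.2, 50.5 and 36.6 TPM (log2 ratio of cluster 3 over cluster 1 -0.90). That ratio was within 1.5-fold on the CPM scale, per spike-in RNA and in equal bins along the first component. Relative to the shift of all genes it was -0.64, -1.12 and -0.47 in these settings. On the CPM scale, in which long transcripts weigh more, the ratio of the first step was 0.73 in place of -0.45. Hist1h4d was found in all 19 cells of cluster 1 and in 86.02% and 84.8% of those of clusters 2 and 3, with medians of 9.11, 4.49 and 3.70 TPM. Hist1h4n was found in 11 of 19, 22 of 93 and 15 of 33 cells, with means of 19.7, 6.72 and 8.13 TPM. Hist1h4i had means of 19.3, 14.6 and 9.09 TPM, and its second-step ratio, -0.63, was -0.32 with 1 cell left out.

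Hist4h4 and Hist2h4 followed another course and were highest in cluster 2. Hist4h4, the member of its own cluster on chromosome 6, had means of 0.287, 10.53 and 2.29 TPM, and its highest cells had 2.75, 137.3 and 21.9 TPM. Without cell 65 its mean in cluster 1 was 0.150. Its log2 ratios were 3.16 for the first step and -1.81 for the second, and the first was past 1.5-fold in every alternative tried. Hist2h4 had 0.140, 4.38 and 0.0834 TPM (log2 ratios 2.24 and -2.31, or 0.38 and -0.42 with means of log2 values), and without cell 41 at 313 TPM its mean in cluster 2 was 1.02. Hist1h4b rose from 0.939 TPM in cluster 2 to 3.63 in cluster 3 (log2 ratio 1.26, and 0.49 on the CPM scale), or to 2.36 without cell 53. Hist1h4k, found in 12 cells, had 2.803, 0.00932 and 1.21 TPM (log2 ratio of the first step -1.91, but not past 1.5-fold on the CPM scale). Without cell 98 its mean in cluster 1 was 1.51 TPM, and without its highest cell that of cluster 3 was 0.656. Hist1h4a, found in 4 cells, was at 0 in all cells of cluster 2. Its 1.21 TPM in cluster 3 was 104.4-fold above a floor of 3 reads over cluster 2, and 41.5-fold without its highest cell. That floor is a setting and no bound.

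The hexamers AATAAA or ATTAAA, the usual poly(A) signals, lay in the last 50 annotated bases of 17 members, which held 24.3% of the summed TPM, and the median of their mean levels was 1.44 TPM against 1.22 for the other 51. Of the summed TPM, 55.7% came from the 22 members whose annotated transcript ends within 100 bases of the stem-loop, among them Hist2h2aa1 and Hist1h2ap. Another 30.3% came from the 23 members that run on for more than 100 bases, and 13.99% from the 23 without a stem-loop in the transcript. The reads do not say where these RNAs ended.

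The genes that make and process histone mRNA were measured in the same cells. Ratios of these genes and of the lists that follow are in TPM alone, with no alternative run for them. Spike-in scaling moved the median of all genes by 0.68 from cluster 1 to 3. Falls near 1.5-fold may therefore not hold on that scale. Slbp, which encodes the stem-loop binding protein, was detected in all cells kept, and its mean fell from 871 TPM in cluster 1 to 419 and 284 (log2 ratio of cluster 3 over cluster 1 -1.61). Npat, the coactivator of histone gene transcription in S phase, fell from 24.2 to 12.8 and 9.80 TPM (-1.22), and Ccne2, a cyclin E that acts on it with Cdk2, from 223 to 79.2 and 20.01 TPM (-3.41). Casp8ap2, a factor of histone mRNA cleavage, stayed within 1.5-fold (37.4, 31.6 and 35.96 TPM). Of the U7 particle that cuts the mRNA, Lsm11 had 6.68, 9.80 and 10.9 TPM (0.63), Lsm10 rose from 46.1 to 76.3 and 145.7 TPM (1.64), and the zinc finger gene Zfp473 fell (-1.64). Upf1, a helicase of histone mRNA decay, rose (1.48), as did Lsm1 (0.82). Of 22 listed genes, 12 were lower and 4 higher between clusters 1 and 3, where 38.3% of all genes were lower and 31.7% higher, with a median log2 ratio of -0.72 against -0.17 for all genes. Coil, the scaffold of Cajal bodies, was lower in the first step (-1.07) and higher in the second (0.67). Also lower were Cpsf2 (-0.998), Cpsf3 (-0.85), Sympk (-0.73), Ncbp1 (-1.01), Ncbp2 (-0.75), Mif4gd (-0.72), Cdk2 (-1.14) and Ccne1 (-1.21).

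The S phase list had 10 of 22 genes lower and 5 higher between clusters 1 and 3, beside 38.3% and 31.7% of all genes, with a median log2 ratio of -0.46. Mcm5, a subunit of the replicative helicase, went from 153 to 76.3 and 34.9 TPM (-2.10), Cdc45 from 33.9 to 5.97 and 3.50 TPM (-2.95), and Asf1b, an H3 and H4 chaperone, from 119.9 to 57.4 and 25.8 TPM (-2.17). Pcna, the replication clamp, stayed within 1.5-fold at 58.4, 59.98 and 46.3 TPM. Tyms, which makes thymidylate, went the other way, from 12.04 to 70.9 and 125.1 TPM (3.27), as did Cdc6 (1.84), Chaf1b (1.69), Gins2 (1.07) and Uhrf1 (0.79). Also lower were the helicase genes Mcm3 (-1.16), Mcm4 (-1.88) and Mcm6 (-2.07), and Rrm2 (-1.69), Chaf1a (-1.04) and Prim1 (-1.11). Past 1.5-fold in a single step only or in both directions were Mcm7 (-0.85), Rrm1 (-0.73) and Pola1 (-0.89 and 1.15). Of 5 dividing cell markers, Ccnb1 (0.88) and Ccna2 (1.25) were higher and 1, Top2a, was lower, at 138.7, 20.1 and 26.7 TPM. The sum of the members correlated at -0.09 with Slbp, 0.15 with Pcna and -0.11 with Mcm5 across the cells.

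Histone genes outside the clusters also differed between clusters, with 7 of 14 lower and 4 higher between clusters 1 and 3, where 38.3% and 31.7% of all genes were. H2afz, a replication-independent H2A variant, fell from 1130 to 539 and 355 TPM (-1.67), H2afx, the variant phosphorylated at DNA breaks, from 351 to 182 and 90.8 TPM (-1.94), and H1f0, the linker histone of quiescent cells, from 291 to 212 and 52.1 TPM (-2.46). H2bfm, an H2B variant, went from 118.9 TPM in cluster 1 to 1.07 and 0.00722 TPM and was detected in 17 cells. H2afv (-0.61), H2afy2 (-1.35) and H1fx (-0.59) were lower and H2afy (0.73) higher. H3f3c was higher in the first step (1.001) and lower in the second (-0.97). H3f3a and H3f3b, the replication-independent H3 genes, stayed within 1.5-fold. H1foo, the oocyte linker histone, rose from 0.081 to 211 TPM, but it is one of the genes that set the clusters. Cenpa, the centromeric H3, rose (2.52), as did H2afj (2.19).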

How the data were processed

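RNA of 146 single cells picked as germ cells was measured by Smart-seq2 after spike-in RNA (ERCC) had been added, and the members and lists were chosen with earlier results of these data known. Per the file headers, the authors deposited TPM and the estimated counts of reads for each gene symbol, made with Salmon (sequence bias correction on) against mm10 and the 92 spike-in sequences; the annotation release is not given in the sources used here. Reads of near-identical members were divided by that estimate. The TPM of each deposited cell sums to 1000000, so a level is relative to all other captured RNA of the cell and to the spike-in RNA. The libraries do not record strand, so overlapping genes on opposite strands cannot be told apart.

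From these files, the library with Ddx4 below 1 TPM was left out. A member was counted as detected at 0.1 TPM, and intervals are exact (Clopper-Pearson, 95%) for counting error only. Clusters came from 20 feature genes (Seurat 5.3.0 in R 4.3.3, resolution 0.2), and cells were ordered by the first component (36.28% of variance). Ratios used mean TPM plus 1, genes that averaged 1 TPM or more in 1 of the 2 clusters, and a limit of 1.5-fold. Ratio code was checked on simulated data. Values were computed with Python 3.11.15, NumPy 2.4.6, pandas 2.3.3, SciPy 1.17.1 and matplotlib 3.10.9.

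Named with values are the 12 members with the highest mean, the 5 with the largest ratio in each direction of each comparison, members known from germ cells or for polyadenylated RNA in differentiated cells, and, of the listed genes, Slbp, Npat, Casp8ap2, Lsm11, Pcna, Mcm5 and those past 1.5-fold, of which 1 is not reported here. Other members named were chosen after their values were seen. Stem-loops and shared words of 31 bases were read from GENCODE M21 transcripts, whose lengths matched 66 of 68 members, and promoters from RefSeq (GRCm38.p6). Alternatives were CPM, spike-in scaling, a pseudocount of 0.1 TPM, no filter, means of log2 values, Ward clusters, equal bins along the first component, clusters of the 2000 most variable genes, reads thinned to 1000000 and leaving out each cell. Leaving out the second library of each like pair, or libraries with over 10000 TPM of blood or endothelial markers, was added after seeing the data.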

Additional observations from a re-analysis of the deposited data

Results flagged for a closer look

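The library that was left out because Ddx4 was at 0 TPM also held RNA of the members. Their summed TPM there was 170.6, and Hist2h3c1 alone had 155.4 TPM from 386 reads. The library had 1408459 reads on genes, below every library that was kept, 5 of the 68 members reached 0.1 TPM, and Hist4h4 followed Hist2h3c1 with 13.1 TPM. Its summed pregranulosa and stroma markers were 88.4 and 234.8 TPM, against medians of 0.359 and 0.623 and highest values of 81.6 and 378.9 in the libraries kept, so that stroma markers were higher in some of those. Its germ cell markers were at 0.880 TPM, against a lowest value of 779.5 in the libraries kept. Its label is that of the other cells, and it entered no comparison.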

How the results depend on the processing

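The H3 rise from cluster 1 to cluster 3 kept its direction and stayed past 1.5-fold in every alternative run. Of 330 values for the 30 ratios of named members, 307 kept their side of 1.5-fold, 22 no longer reached it and 1 reversed, and 15 ratios kept their side throughout, among them all 3 of Hist1h2ba. The other 15 lost their side as follows. With means of log2 values these were Hist1h1t, Hist2h4, Hist1h3b and Hist1h2ao in the first step below and Hist1h2ao, Hist2h4, Hist1h3h, Hist2h3c2, Hist2h3c1, Hist1h3i and Hist1h4a in the second. On the CPM scale they were Hist1h4k in the first and Hist1h4b and Hist1h4a in the second, and with other clusters or bins Hist1h2ao in the first and Hist1h4b and Hist2h3c2 in the second. Per spike-in RNA it was Hist2h2aa1 over both (-0.56), and with 1 cell left out Hist1h3b in the first, Hist1h4a in the second and Hist1h3i over both (0.11). The reversal was that of Hist1h3i from cluster 2 to cluster 3, which ranged from -0.48 to 2.32 with 1 cell left out. Of 283 values for the other results, 243 were counted as unchanged. For ratios this meant the same side of 1.5-fold, and for counts of members a factor of at most 1.5. For medians over cells it meant a shift under 1 standard deviation across cells, which is a wide limit. In what follows, log2 ratios are of cluster 2 over 1 (first step), cluster 3 over 2 (second step) and cluster 3 over 1 (both steps). On the CPM scale the first step had 6 members higher and 9 lower of 25 (30.5% and 23.9% of all genes) and the second 8 and 7 of 28 (23.2% and 26.8%), H2B was -0.43 for the first step and -0.087 for both, H4 was 0.73, -1.18 and -0.45, and H2A was -0.25 for the second. Per spike-in RNA, which moved the median of all genes by -0.22, 0.82 and 0.68, members higher were 28 of 46 for the second step (51.5% of all genes) and 20 of 47 for both (47.8%). All members were then at 0.76 for the second step (-0.06 relative to that shift), H1 at -0.75, 1.51 and 0.76, H2A at 0.38 for the second, and H4 at -0.94 for the first and -0.44 for both. Relative to the shift these are -0.53, 0.69 and 0.08 for H1, -0.44 for H2A and -0.72 and -1.12 for H4. With means of log2 values, members higher in the first step were 3 of 42 (12.3% of all genes), lower in the second 3 of 43 (10.8%) and lower over both 11 of 40 (23.05%), H3 and H4 were 0.50 and -0.93 for the first step, and H2A and H2B were -0.83 and -0.47 over both. In equal bins H2B was -0.27 for the first step and -0.38 over both, H1 0.60 for the second and H4 -0.44 over both. For the second step H2A was -0.45 with Ward clusters and -0.55 with clusters of the most variable genes, where H4 was -0.60, and H2B was -0.60 without the second library of each like pair and -0.64 without blood-marker libraries. With any 1 cell left out, the first step ranged from -0.60 to -0.091 for H1 and from -0.59 to -0.27 for H4, the second from -0.67 to -0.40 for H2B and from -0.59 to -0.31 for H4, and both steps from -0.70 to -0.41 for H2A. The cause of these differences was not tested. No paired analysis was possible because all cells belong to 1 group. Most members were at 0 in most libraries, and at a single cell's depth a value of 0 does not show that the RNA was absent.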

Other observations

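Across cells, the members did not move as 1 block. Among the 50 members detected in at least 10 cells, the 1225 pairs had a median Spearman correlation of 0.04, with a range of -0.35 to 0.46, and 8 pairs were above 0.3. The highest was that of Hist1h2bq and Hist1h2br, and the lowest that of Hist1h2ap and Hist1h2ao. Both are pairs of near-copies whose reads are divided between them by an estimate, and Hist1h2bq shares 98.3% of its words with Hist1h2br. Next highest were Hist1h3i with Hist1h3h (0.41) and Hist1h4n with Hist1h4m (0.36). Hist1h3i and Hist1h4n share 85.3% and 85.25% of their words with these partners. A correlation of at least 0.2 with the order of cells on the first component was reached by 7 of these 50 members (14%), against 17.4% of all genes detected as often, and one of -0.2 or below by 3 (6%), against 12.1%. These are descriptions of cells of 1 sample that share their depth and scaling.

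H2A and H2B genes often lie head to head, and 13 such pairs were found among the members, with starts 176 to 306 bases apart. Hist1h2ap was detected in all 13 cells with its partner Hist1h2br, but those cells are 9.77% of the cells with Hist1h2ap. Hist1h2ac and Hist1h2bc were found together in 14 cells, 50% of those with the former and 28% of those with the latter. Hist1h2an and Hist1h2bp, found in 7 and 12 cells, shared none.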
